A study of Mus musculus with 6 samples.

Results

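The transcripts of 5 genes of haem breakdown and synthesis were followed in retinoic acid-differentiated N2a cells given DMSO or RSL3. They were the haem oxygenase genes Hmox1 and Hmox2, the biliverdin reductase genes Blvra and Blvrb, and the ferrochelatase gene Fech. They were chosen by gene symbol, and all 5 were found among the 11609 genes of the deposited mRNA tables. N2a is a mouse neuroblastoma line, and both groups had been differentiated with 10 µM retinoic acid for 96 h in medium with 2% serum. The 3 RSL3 libraries came from cells then given 5 µM RSL3 for 24 h, a compound that inhibits the lipid peroxide-reducing enzyme GPX4 and so induces ferroptosis. The 3 control libraries came from differentiated cells given the solvent DMSO. The comparison asks how the transcripts of haem breakdown stand after RSL3 in these differentiated cells. Whether ferroptosis occurred in them was not tested here. The sources used here do not say whether replicates were grown as separate cultures, so the p-values measure a difference against the spread between libraries, which may be technical.

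Haem is opened by haem oxygenase, an enzyme of the endoplasmic reticulum that takes electrons from the reductase encoded by Por and releases biliverdin, carbon monoxide and iron. Biliverdin reductase turns biliverdin into bilirubin, an antioxidant that is later conjugated and exported. Hmox1 encodes the inducible haem oxygenase. Its gene is held down by the haem-sensing repressor BACH1 and switched on by NRF2, each with a small MAF partner. Hmox2 encodes the constitutive form, the main haem oxygenase of neurons. Ferrochelatase catalyses the last step of haem synthesis, so Fech belongs to the making of haem and not to its breakdown.

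The mRNA values of a library summed to between 200130 and 225290 FPKM (fragments per kilobase of transcript, scaled to the mapped fragments of the library). FPKM keeps no read depth, so the depth is unknown and no counting interval is given. On the first principal component of the tested mRNAs (47.2% of the variance) the scores were 26.2 for RSL3 replicate 1, 1.25 for replicate 2 and 7.35 for replicate 3, while those of the controls ran from -13.2 to -9.46. Of 13 neuronal markers 9 were in the tables, and Nefl, Nefm, Dcx and Rbfox3 were not among them. Their sums lay between 274 and 280.5 FPKM with DMSO and between 241 and 264 FPKM with RSL3. In limma 0 of the 9 rose and 1 fell (0 and 4 at an unadjusted p under 0.05), with a median log2 fold change of -0.24. Of all tested mRNAs 2.46% rose and 3.92% fell (9.86% and 14.3% at an unadjusted p under 0.05). The marker that fell was Gap43, the gene of a growth cone protein, with means of 37.4 ± 1.49 FPKM (DMSO) and 28.8 ± 1.01 FPKM (RSL3; SD, n = 3) and a log2 fold change of -0.37 (adjusted p = 0.0181). Its call was lost without DMSO replicates 1, 2 and 3 in turn (adjusted p = 0.115, 0.0901 and 0.0851), without RSL3 replicate 3 (0.0783) and with the replicate block (0.0690). Elavl4 (-0.61), Stmn2 (-0.23) and Map2 (-0.39) had an unadjusted p under 0.05 without passing, and the neuronal tubulin gene Tubb3 stood at -0.01. Of the 9, 3 fell with length and GC trends removed, where 8.07% of all tested mRNAs fell. Without RSL3 replicate 1 or 2 the number was 2, where 7.18% and 4.14% fell. It was 0 without any 1 DMSO library and with the replicate block. There 0.999%, 0.799% and 0.856% of all tested mRNAs fell without DMSO replicates 1, 2 and 3 in turn, and 1.56% with the block. Of 20 liver markers all 20 were in the tables, with sums of 82.3 to 120 FPKM with DMSO and 20.9 to 36.6 FPKM with RSL3. With no filter on low values 17 of the 20 fell, where 3.66% of all mRNAs fell. With the filter of 1 FPKM 15 were tested and fell, of which 5 were under 1 FPKM in all RSL3 libraries and so passed it only through the DMSO libraries. Without DMSO replicate 2 or 3 the number was 5 of 10, and without DMSO replicate 1 it was 9 of 10. It was 10 of 15 without RSL3 replicate 3 and 12 of 15 with the replicate block. In those fits, in the same order, 0.799%, 0.856%, 0.999%, 1.25% and 1.56% of all tested mRNAs fell. Of 11 macrophage and microglia markers and 13 erythroid markers, the tables hold Cd68 (at most 0.606 FPKM) and the beta-globin gene Hbb-bs (at most 0.591 FPKM, and 0 in RSL3 replicate 3). Both were below the filter. With no filter Hbb-bs fell, as did 3.66% of all mRNAs, and Cd68 did not pass. Of 7 endothelial and astrocyte markers they hold Pecam1, and its sum lay between 0.569 and 0.904 FPKM. In such bulk RNA, fewer cells of one type and less RNA per cell cannot be told apart. The source of the liver transcripts in libraries of a neuroblastoma line was not tested. RNA from outside these cells cannot be told apart from the other 2 readings either.

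Hmox1 and Blvrb rose with RSL3, and Hmox2, Blvra and Fech did not pass the test. Each gene was tested in limma across all 10590 mRNAs that reached 1 FPKM in 3 or more libraries, two-sided on log2(FPKM + 1), with Benjamini-Hochberg adjustment and a threshold of 0.05. All 5 genes passed this filter, and log2 fold changes are given on that scale with their standard errors (SE). Thus 2 of 5 genes rose, where 2.46% of all tested mRNAs rose, and 0 fell, where 3.92% fell (6.38% in either direction). The 5 genes were chosen with earlier results of these data known, so setting them beside all mRNAs is a description. After quantile normalization the shares of all tested mRNAs were 3.31% higher and 3.11% lower. At an unadjusted p under 0.05 the numbers were 3 higher and 0 lower, where 9.86% of all tested mRNAs were higher and 14.3% lower. The lowest RSL3 library exceeded the highest DMSO library for 4 of the 5 genes, and for 13.4% of all tested mRNAs. The median log2 fold change was 0.21 for the 5 genes and -0.03 for all tested mRNAs.

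**Figure D1:**
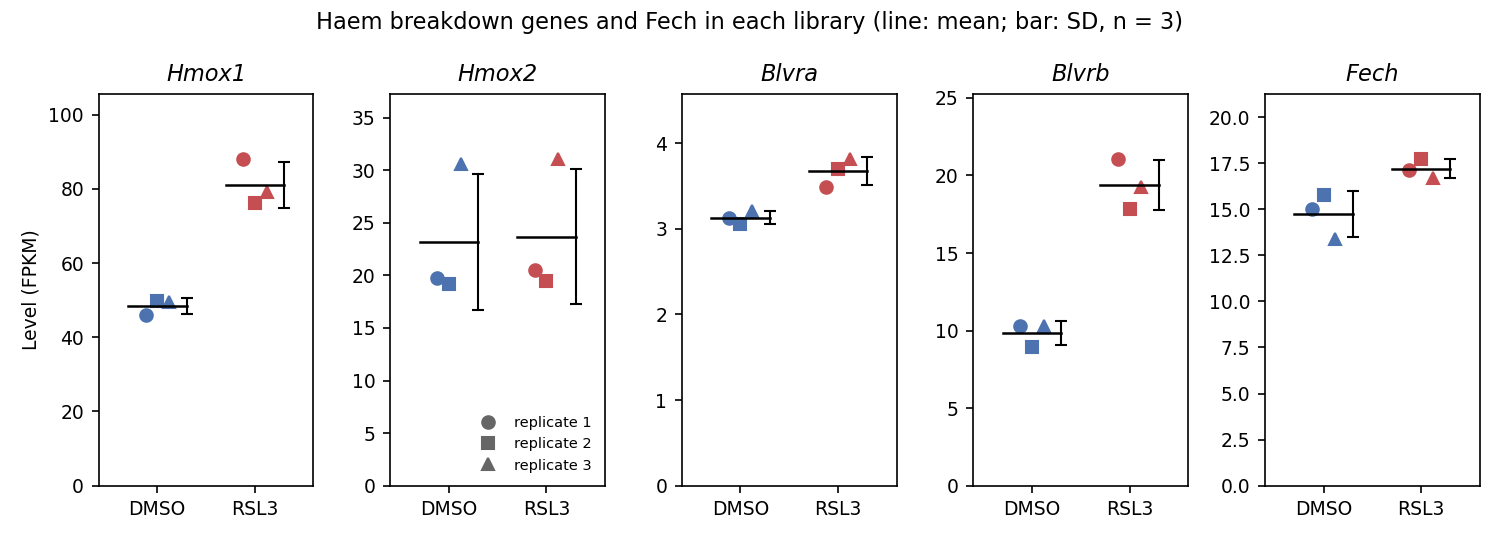
Level in FPKM (vertical axis, from 0) of the 5 genes in each of the 3 DMSO and 3 RSL3 libraries, with marker shapes for the replicate number; lines are means and bars are SD (n = 3). The groups are apart for Hmox1, Blvra, Blvrb and Fech, and for Hmox2 replicate 3 is the highest library of both groups.

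Hmox1 (ENSMUSG00000005413.8; GRCm38 chromosome 8, 75093621 to 75100589, plus strand) was the most abundant of the 5 in both groups. It stood at 46.1, 49.8 and 49.5 FPKM in DMSO replicates 1, 2 and 3 and at 88.1, 76.2 and 79.1 FPKM in RSL3 replicates 1, 2 and 3. The lowest RSL3 library was 26.4 FPKM above the highest DMSO library. The mean went from 48.4 ± 2.05 to 81.1 ± 6.21 FPKM (SD, n = 3), a ratio of 1.68. The log2 fold change was 0.73 ± 0.07 SE, with a 95% interval from 0.56 to 0.90 and an adjusted p of 0.00401 in limma. The level was already high without RSL3, above that of 93.3% of all listed mRNAs with DMSO and of 96.6% with RSL3. The gene ranked 37 from the top of the tested mRNAs by log2 fold change.

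Hmox2 (ENSMUSG00000004070.15; chromosome 16, 4726361 to 4766742, plus strand) stood at 19.7, 19.2 and 30.6 FPKM in DMSO replicates 1, 2 and 3. In RSL3 replicates 1, 2 and 3 it stood at 20.5, 19.4 and 31.1 FPKM. In both groups replicate 3 was about as far above replicates 1 and 2 as in the other, and the groups overlapped. The means were 23.2 ± 6.44 and 23.7 ± 6.43 FPKM (SD, n = 3), and the log2 fold change was 0.03 ± 0.22 SE (adjusted p = 0.953 in limma). On FPKM + 1 the 95% interval of the fold change ran from 0.708 to 1.47, so changes within it in either direction were not excluded. With the replicate block the log2 fold change was 0.03 ± 0.08 SE (adjusted p = 0.860 in limma). The sign of the log2 fold change turned without DMSO replicate 1 (-0.07), without DMSO replicate 2 (-0.08) and without RSL3 replicate 3 (-0.17). Without replicate 3 of both groups, an alternative chosen after seeing these values, the log2 fold change was 0.03 ± 0.10 SE.

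The 2 haem oxygenase mRNAs are paralogs, and the stretch in which their coding sequences are most alike is shown because it sets how well reads of one can be told from the other. Both runs are 90 bases of GENCODE M21 transcripts (GRCm38), 5′ to 3′, and capitals mark the bases that differ. Positions count from 1 at the start codon.
Hmox1, coding bases 372 to 461: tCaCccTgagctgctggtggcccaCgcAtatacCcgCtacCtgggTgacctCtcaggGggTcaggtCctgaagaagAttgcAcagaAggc
Hmox2, coding bases 429 to 518: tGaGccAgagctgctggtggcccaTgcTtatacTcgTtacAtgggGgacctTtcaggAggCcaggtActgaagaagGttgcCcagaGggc
In this window 74 of 90 bases were identical (82.2%), against 64.9% over the 841 aligned coding bases. The longest identical run of the coding sequences was 17 bases, and no run of 31 bases of the Hmox1 transcript occurred in a transcript of any other gene of that annotation. For Hmox2, 49.4% of the 31-base runs of its transcript occurred in transcripts of Cdip1, a gene on the opposite strand that overlaps it by 16395 bases. The library kit keeps the strand per the labels, but the sources used here do not say whether the authors' quantification used it, so the Hmox2 value is uncertain to that extent. Cdip1 stood at 4.99, 4.38 and 4.42 FPKM in DMSO replicates 1, 2 and 3 and at 9.33, 5.35 and 5.38 FPKM in RSL3 replicates 1, 2 and 3. Replicate 3 was not its highest library in either group. All RSL3 libraries of Cdip1 were above all DMSO libraries, but its log2 fold change did not pass (0.42 ± 0.19 SE, adjusted p = 0.227 in limma). Whether reads of 1 of these genes were counted for the other was not tested.

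Blvrb (ENSMUSG00000040466.16; chromosome 7, 27447978 to 27466144, plus strand) encodes a biliverdin reductase that also reduces flavins. It stood at 10.3, 8.93 and 10.3 FPKM in DMSO replicates 1, 2 and 3 and at 21.1, 17.9 and 19.3 FPKM in RSL3 replicates 1, 2 and 3. The groups were apart by 7.56 FPKM. The mean rose from 9.83 ± 0.78 to 19.4 ± 1.61 FPKM (SD, n = 3), a ratio of 1.97. The log2 fold change was 0.91 ± 0.09 SE, with a 95% interval from 0.70 to 1.12 and an adjusted p of 0.00377 in limma. It ranked 14 from the top of the tested mRNAs, and its level moved from above 62.8% to above 80.5% of all listed mRNAs.

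Blvra (ENSMUSG00000001999.15; chromosome 2, 127070665 to 127097084, plus strand) encodes the reductase that acts on the biliverdin isomer made by haem oxygenase. It was the least abundant of the 5, with 3.13, 3.05 and 3.21 FPKM in DMSO replicates 1, 2 and 3 and 3.49, 3.70 and 3.82 FPKM in RSL3 replicates 1, 2 and 3. The groups did not overlap, but the gap between them was 0.282 FPKM. The ratio of the means was 1.17, and the log2 fold change of 0.18 ± 0.08 SE did not pass (adjusted p = 0.212 in limma). Its 95% interval ran from -0.003 to 0.36.

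The 250 bases before the transcription start of Blvra and of Blvrb are shown because one of this pair rose and the other did not pass. They come from the RefSeq promoter table (GRCm38.p6), are on the plus strand and are printed 5′ to 3′. Capitals mark matches on either strand to the core of the antioxidant response element, TGACNNNGC, which NRF2 and BACH1 bind, or to the GC box, CCGCCC.
Blvra, chr2:127070407-127070656: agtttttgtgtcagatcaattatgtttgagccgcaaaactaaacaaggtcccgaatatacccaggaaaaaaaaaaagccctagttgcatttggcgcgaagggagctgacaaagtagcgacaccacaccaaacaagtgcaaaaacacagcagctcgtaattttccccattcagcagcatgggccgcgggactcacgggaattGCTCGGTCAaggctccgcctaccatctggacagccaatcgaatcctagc
Blvrb, chr7:27447728-27447977: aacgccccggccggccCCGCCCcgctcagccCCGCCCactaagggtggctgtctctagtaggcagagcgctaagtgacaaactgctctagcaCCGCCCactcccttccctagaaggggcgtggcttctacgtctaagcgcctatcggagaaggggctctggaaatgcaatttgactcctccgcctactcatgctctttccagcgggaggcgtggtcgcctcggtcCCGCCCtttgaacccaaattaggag
The Blvra window held 1 match to the antioxidant core, on the minus strand, and 0 GC boxes. The Blvrb window held 4 GC boxes and 0 matches to the antioxidant core, as did its second annotated start for that core. Among 32851 RefSeq promoter windows of this length, 10.2% held the antioxidant core and 32.7% a GC box. Neither window held an AP-1 site (TGANTCA), an E-box (CACGTG) or a TATA box (TATAAA). A match is a description of the letters and not a bound site, and elements outside these 250 bases were not searched.

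Fech (ENSMUSG00000024588.8; chromosome 18, 64452914 to 64490251, minus strand) stood at 15.0, 15.8 and 13.4 FPKM in DMSO replicates 1, 2 and 3. In RSL3 replicates 1, 2 and 3 it stood at 17.1, 17.7 and 16.7 FPKM. The groups did not overlap and were apart by 0.899 FPKM. The mean went from 14.7 ± 1.24 to 17.2 ± 0.52 FPKM (SD, n = 3), a ratio of 1.17. The log2 fold change was 0.21 ± 0.08 SE, with a 95% interval from 0.03 to 0.40 and an adjusted p of 0.156 in limma, so it did not pass. Of the 31-base runs of its longest-coding transcript, 14.1% also occurred in transcripts of other genes.

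**Figure D2:**
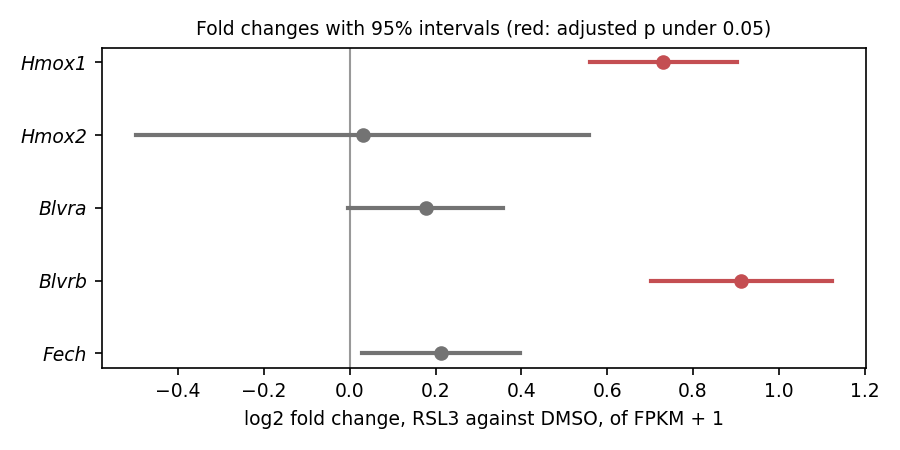
Log2 fold change of FPKM + 1, RSL3 against DMSO (horizontal axis), of the 5 genes with the 95% interval of the limma fit over 6 libraries; red marks an adjusted p under 0.05. Hmox1 at 0.73 and Blvrb at 0.91 lie apart from 0, and Hmox2 at 0.03 has the widest interval.

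Since FPKM is per length, levels can be set beside each other. Those of Hmox2 and Fech carry the uncertainty of the sequence their transcripts share with other genes, as given above. With DMSO the order of the means was Hmox1 (48.4 FPKM), Hmox2 (23.2), Fech (14.7), Blvrb (9.83) and Blvra (3.13), and no neighbours in that order overlapped. With RSL3 Blvrb (19.4 FPKM) stood above Fech (17.2), with its lowest library at 17.9 and the highest Fech library at 17.7 FPKM. Blvrb then overlapped Hmox2 (23.7 FPKM), while Hmox1 (81.1) and Blvra (3.67) remained apart from the others.

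Ratios of 2 genes within a library do not depend on how the libraries were scaled, and 4 such ratios were compared by an exact two-sided permutation test. With 3 against 3 libraries its smallest possible p is 0.1, so none could pass, and p-values were adjusted over the 4. The ratio of Blvrb to Blvra was 3.30, 2.92 and 3.20 in DMSO replicates 1, 2 and 3 and 6.03, 4.82 and 5.05 in RSL3 replicates 1, 2 and 3. All RSL3 libraries were thus above all DMSO libraries, and the log2 ratio was 0.75 higher (exact permutation p = 0.1, adjusted p = 0.133). Of the summed FPKM of both reductase genes, Blvrb made up 75.8% ± 1.15 with DMSO and 84.0% ± 1.56 with RSL3 (SD, n = 3).

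The ratio of Hmox1 to Hmox2 was 2.33, 2.59 and 1.61 in DMSO replicates 1, 2 and 3 and 4.29, 3.92 and 2.55 in RSL3 replicates 1, 2 and 3. The groups overlapped, since RSL3 replicate 3 lay below DMSO replicate 2, and the log2 ratio differed by 0.71 (exact permutation p = 0.2, adjusted p = 0.2). Hmox1 made up 68.0% ± 5.48 of the summed haem oxygenase FPKM with DMSO and 77.5% ± 5.01 with RSL3 (SD, n = 3). These shares carry the uncertainty of the Hmox2 value given above. The log2 ratio of Hmox1 to Fech was 0.52 higher with RSL3, with groups that did not overlap (exact permutation p = 0.1, adjusted p = 0.133). That of Hmox1 to Blvrb was 0.24 lower, again without overlap and with the same p.

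**Figure D3:**
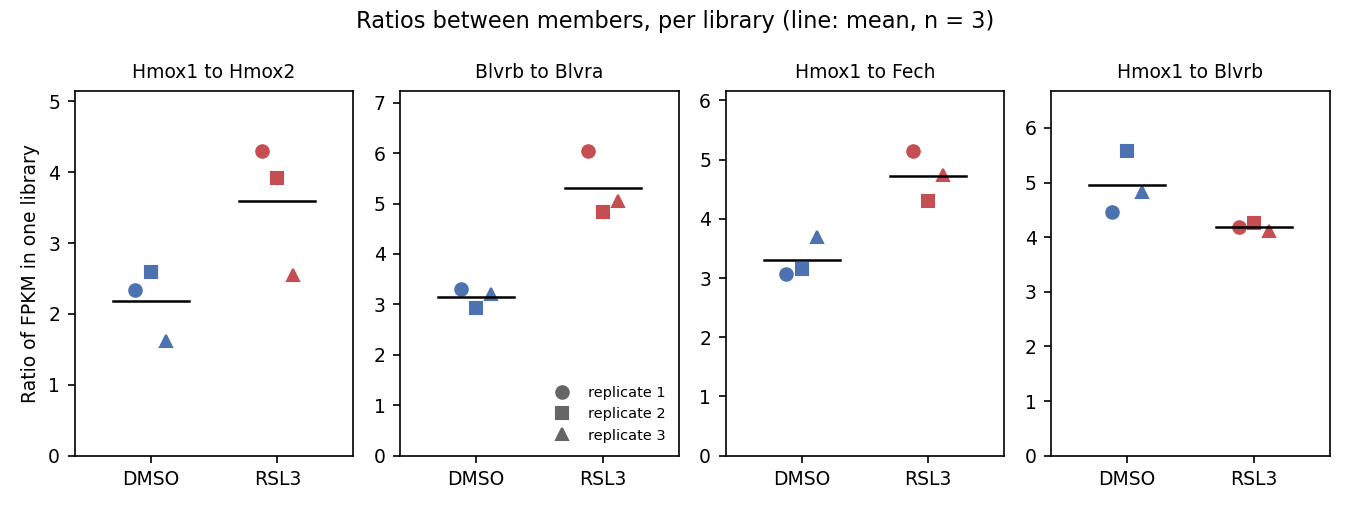
Ratio of FPKM of 2 genes in the same library (vertical axis, from 0) for 4 pairs in the 3 DMSO and 3 RSL3 libraries, with marker shapes for the replicate number and lines at the means. The groups are apart for Blvrb to Blvra, Hmox1 to Fech and Hmox1 to Blvrb, and overlap for Hmox1 to Hmox2.

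Both rises held in each of the 6 fits that left 1 library out and under the 9 other settings tried. Without RSL3 replicate 1, which stood apart on the first principal component, the log2 fold change was 0.67 for Hmox1 (adjusted p = 0.00333 in limma) and 0.85 for Blvrb (adjusted p = 0.00358). RSL3 replicate 1 held the highest value of both genes, 0.85 and 1.03 above the DMSO mean on the log2 scale, against 0.64 and 0.80 in RSL3 replicate 2 and 0.70 and 0.91 in RSL3 replicate 3. Without replicate 3 of both groups neither passed (adjusted p = 0.143 and 0.140), in a fit with 2 libraries a group that called 0 of 10387 mRNAs. The liver markers were lower in the same RSL3 libraries, and the part of that in these results was not tested.

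The genes around haem breakdown were taken from 8 lists, which hold 73 genes of the tables beside the 5, of which 69 were tested. Of these 69, 6 rose (8.7%, against 2.46% of all tested mRNAs) and 0 fell (3.92%). The lists were chosen with earlier results of these data known, so these shares and the counts by list below are descriptions. At an unadjusted p under 0.05 there were 17 higher and 8 lower of 69, beside 9.86% and 14.3% of all tested mRNAs. Of the 17, 1 (Slc40a1) passed the filter only through the RSL3 libraries. The median log2 fold change was 0.006, beside -0.03 for all. The number that rose was 3 when any 1 DMSO library or RSL3 replicate 3 was left out, and 11 without RSL3 replicate 1. The share of all tested mRNAs that rose moved the same way: it was 0.571%, 0.561% and 0.447% without DMSO replicates 1, 2 and 3 in turn, 0.533% without RSL3 replicate 3 and 4.94% without RSL3 replicate 1. The number that fell was 2 without RSL3 replicate 1 and 1 without RSL3 replicate 2, where 7.18% and 4.14% of all tested mRNAs fell.

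**Figure D4:**
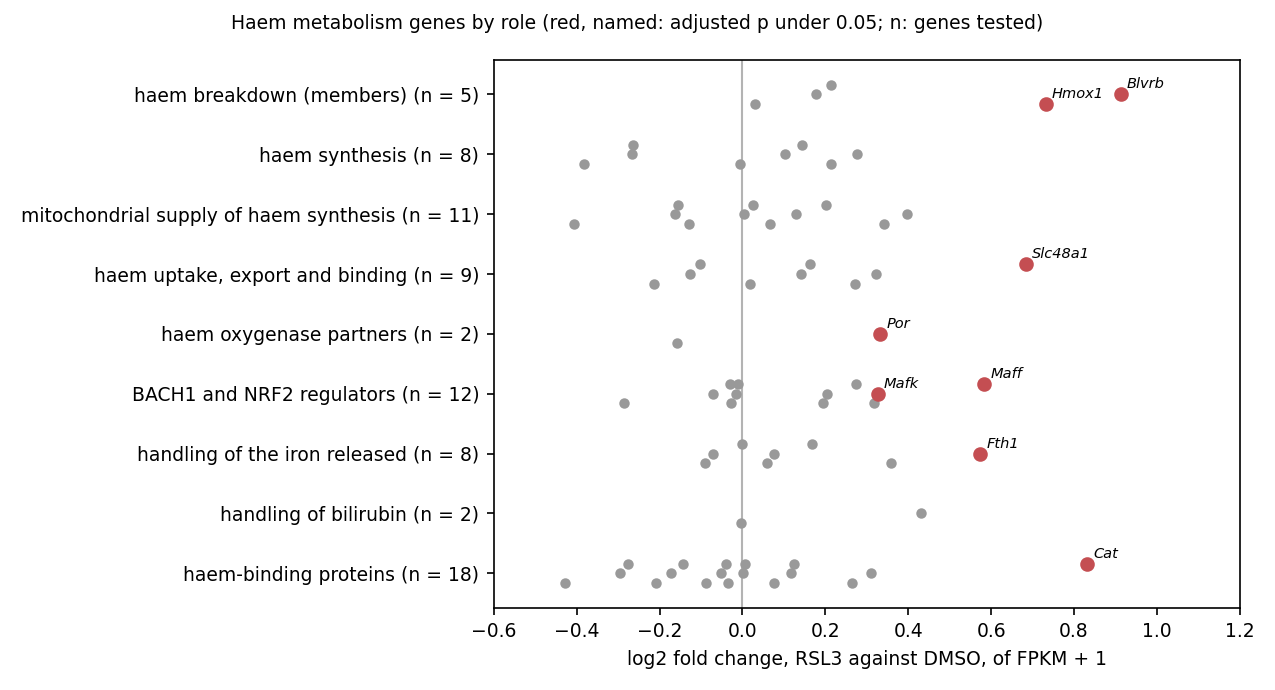
Log2 fold change of FPKM + 1, RSL3 against DMSO (horizontal axis), of each tested gene of 9 lists ordered by role, the 5 genes first; vertical offsets within a list separate the points only. Red points with names passed at an adjusted p under 0.05, and grey points did not.

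In haem uptake, export and binding 1 of 9 tested genes rose and 0 fell (3 and 1 at an unadjusted p under 0.05 in limma). The median was 0.14, and of all tested mRNAs 2.46% rose and 3.92% fell (9.86% and 14.3% unadjusted). The gene that rose was Slc48a1, which moves haem out of endosomes and lysosomes into the cytosol. It stood at 27.6, 29.4 and 27.8 FPKM in DMSO replicates 1, 2 and 3 and at 49.5, 42.9 and 46.0 FPKM in RSL3 replicates 1, 2 and 3. All RSL3 libraries were above all DMSO libraries, with a log2 fold change of 0.68 ± 0.07 SE (adjusted p = 0.00432 in limma), and the call held under all 15 alternatives. The folate transporter gene Slc46a1, also described as a haem carrier, stood 0.32 higher without passing (adjusted p = 0.0898). Hpx and Hp, which encode the plasma scavengers of haem and haemoglobin and are also liver markers, were below the filter, at 1.78 and 1.61 FPKM with DMSO and 0.519 and 0.464 FPKM with RSL3.

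The electron donor gene Por stood at 42.1, 43.0 and 43.0 FPKM in DMSO replicates 1, 2 and 3 and at 57.3, 53.3 and 51.6 FPKM in RSL3 replicates 1, 2 and 3. It rose by a log2 fold change of 0.33 ± 0.06 SE (adjusted p = 0.0237 in limma). The call was lost without DMSO replicates 1, 2 and 3 in turn (adjusted p = 0.133, 0.116 and 0.111), without RSL3 replicate 3 (0.0650), with the replicate block (0.0886) and with length and GC trends removed (0.0654). Rnf139, which encodes a ligase that marks the Hmox1 protein for degradation, did not pass (-0.16 ± 0.22, adjusted p = 0.715).

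Among 12 genes of the BACH1 and NRF2 system, 2 rose and 0 fell (5 and 0 at an unadjusted p under 0.05 in limma). The median was 0.09, and of all tested mRNAs 2.46% rose and 3.92% fell (9.86% and 14.3% unadjusted). Both genes that rose encode small MAF proteins. Maff stood at 12.2, 12.1 and 11.6 FPKM in DMSO replicates 1, 2 and 3 and at 19.6, 16.0 and 19.9 FPKM in RSL3 replicates 1, 2 and 3 (0.58 ± 0.09 SE, adjusted p = 0.0159). Mafk rose by 0.33 ± 0.07 (adjusted p = 0.0409). Without DMSO replicates 1, 2 and 3 in turn the adjusted p was 0.0754, 0.0806 and 0.0809 for Maff and 0.181, 0.171 and 0.155 for Mafk. Without RSL3 replicate 3 it was 0.0720 and 0.135, and for Mafk it was 0.132 with the replicate block and 0.0704 with length and GC trends removed. Bach1 and Nfe2l2, named here for their roles after their values were seen, stood 0.32 and 0.19 higher without passing (adjusted p = 0.170 and 0.250). Without RSL3 replicate 1 both passed, at 0.42 (adjusted p = 0.0437) and 0.28 (adjusted p = 0.0266).

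Of 8 genes that handle the iron released, 1 rose and 0 fell (2 and 0 at an unadjusted p under 0.05 in limma). The median was 0.07, and of all tested mRNAs 2.46% rose and 3.92% fell (9.86% and 14.3% unadjusted). The ferritin heavy chain gene Fth1 stood at 682, 664 and 709 FPKM in DMSO replicates 1, 2 and 3 and at 1009, 1060 and 990.4 FPKM in RSL3 replicates 1, 2 and 3. Its groups were apart, with a log2 fold change of 0.57 ± 0.06 SE (adjusted p = 0.00424), and the call held under all 15 alternatives. The ferritin light chain gene Ftl1, named after its values were seen, did not pass (0.06 ± 0.24 SE, adjusted p = 0.912 in limma). Its groups overlapped, with means of 415 ± 130 FPKM (DMSO) and 419 ± 58.9 FPKM (RSL3; SD, n = 3). The iron exporter gene Slc40a1 had means of 0.962 ± 0.03 FPKM (DMSO) and 1.53 ± 0.36 FPKM (RSL3; SD, n = 3), and did not pass (0.36, adjusted p = 0.102 in limma). It was under 1 FPKM in all DMSO libraries and so passed the filter only through the RSL3 libraries. It is 1 of the 2 counted as higher at an unadjusted p under 0.05. With a pseudocount of 0.1 FPKM its log2 fold change was 0.60, and with length and GC trends removed it passed (0.42, adjusted p = 0.0157). For bilirubin, 2 of 12 genes were in the tables, and neither passed. The conjugate exporter gene Abcc3 stood 0.43 ± 0.10 higher (adjusted p = 0.0540; 0.0398 without RSL3 replicate 1, 0.0333 without RSL3 replicate 2 and 0.0187 with length and GC trends removed). The related Abcc1 stood at 8.24 ± 0.07 and 8.23 ± 0.35 FPKM (SD, n = 3), with groups that overlapped.

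Of 8 haem synthesis genes, Fech among them, 0 rose and 0 fell in limma, beside 2.46% and 3.92% of all tested mRNAs, so for a list of this size 0 is near the background. At an unadjusted p under 0.05 there were 2 higher and 2 lower, and the median log2 fold change was 0.05. Cpox, which encodes coproporphyrinogen oxidase, stood at 18.9, 17.8 and 17.0 FPKM in DMSO replicates 1, 2 and 3. In RSL3 replicates 1, 2 and 3 it stood at 13.5, 16.0 and 14.8 FPKM, all below DMSO, without passing (-0.27 ± 0.08 SE, adjusted p = 0.104). Urod, which encodes uroporphyrinogen decarboxylase, stood higher in all RSL3 libraries, also without passing (0.28 ± 0.09, adjusted p = 0.130). The first and rate-limiting enzyme gene of the pathway, Alas1, was named for its role after its values were seen. Its means were 5.27 ± 0.20 FPKM (DMSO) and 5.74 ± 0.40 FPKM (RSL3; SD, n = 3), with overlapping groups (0.10, adjusted p = 0.499 in limma). Its erythroid counterpart Alas2 was not in the tables used here.

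Of 11 genes that supply haem synthesis in mitochondria 0 rose and 0 fell in limma (2 and 2 at an unadjusted p under 0.05). The median was 0.03, and of all tested mRNAs 2.46% rose and 3.92% fell (9.86% and 14.3% unadjusted). The inner membrane transporter gene Abcb10 stood at 13.7, 13.2 and 13.6 FPKM in DMSO replicates 1, 2 and 3 and at 8.58, 10.8 and 10.7 FPKM in RSL3 replicates 1, 2 and 3. It missed the threshold at -0.41 ± 0.10 SE (adjusted p = 0.0527), and passed without RSL3 replicate 1 (-0.31, adjusted p = 0.0180). Fam210b, a mitochondrial protein gene linked to iron delivery in developing red cells, stood 0.40 ± 0.11 higher (adjusted p = 0.0714) and passed without RSL3 replicate 1 (0.51, adjusted p = 0.00628). Both also passed with median-ratio scaling (adjusted p = 0.0355 and 0.0335) and quantile normalization (0.0483 and 0.0329). Abcb10 also passed with the filter of 5 FPKM (0.0444) and with length and GC trends removed (0.0467).

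Among 18 tested genes of haem-binding proteins 1 rose and 0 fell (2 and 3 at an unadjusted p under 0.05 in limma). The median was -0.04, and of all tested mRNAs 2.46% rose and 3.92% fell (9.86% and 14.3% unadjusted). The gene that rose was Cat, the gene of catalase, a haem enzyme that removes hydrogen peroxide. Cat stood at 12.0, 13.8 and 12.1 FPKM in DMSO replicates 1, 2 and 3 and at 23.7, 24.2 and 21.9 FPKM in RSL3 replicates 1, 2 and 3. The log2 fold change was 0.83 ± 0.08 SE (adjusted p = 0.00377), and it passed under all 15 alternatives. Cyc1, the cytochrome subunit gene of respiratory complex III, stood 0.28 lower without passing (adjusted p = 0.0512) and passed without RSL3 replicate 1 (-0.31, adjusted p = 0.0176), with the filter of 5 FPKM (0.0430) and with length and GC trends removed (0.0137).

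For each of the 5 genes the most similar profiles over the 6 libraries were taken by Pearson correlation of log2(FPKM + 1) with 6686 genes of at least 5 FPKM on average. These are descriptions: the libraries share the treatment contrast, and the highest of many correlations over 6 points is high by selection. Nearest to Hmox1 were the glucose transporter gene Slc2a1 (r = 0.999), the glutathione transferase gene Gstp1 (0.998) and the cohesin gene Rec8 (0.998). Nearest to Blvrb were Pnrc1 (0.995), Tbc1d9b (0.994) and the proteasome gene Psmd4 (0.994). Hmox1 and Blvrb themselves correlated at 0.98, and Hmox1 with Blvra and Fech at 0.87 and 0.80. Nearest to Blvra were Rpn1 (0.996), Anxa2 (0.992) and Pvr (0.989), and nearest to Fech were Rpl4 (0.993) and Rpp38 (0.985).

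Hmox2 had a profile of its own among the 5, with correlations between -0.43 (Fech) and 0.30 (Blvra). Nearest to it were the hyaluronidase gene Hyal2 (r = 0.966), the RNA polymerase subunit gene Znrd1 (0.966) and the myosin gene Myo9b (0.955). Hyal2 stood at 4.05, 3.95 and 9.41 FPKM in DMSO replicates 1, 2 and 3 and at 5.81, 4.16 and 9.02 FPKM in RSL3 replicates 1, 2 and 3. As with Hmox2, replicate 3 was the highest of both groups. Hyal2 was picked for its likeness to Hmox2 over these libraries, so that shared peak comes by selection. Over all tested mRNAs the deviations of the replicate 3 libraries from their group means correlated at -0.06 between the groups.

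**Figure D5:**
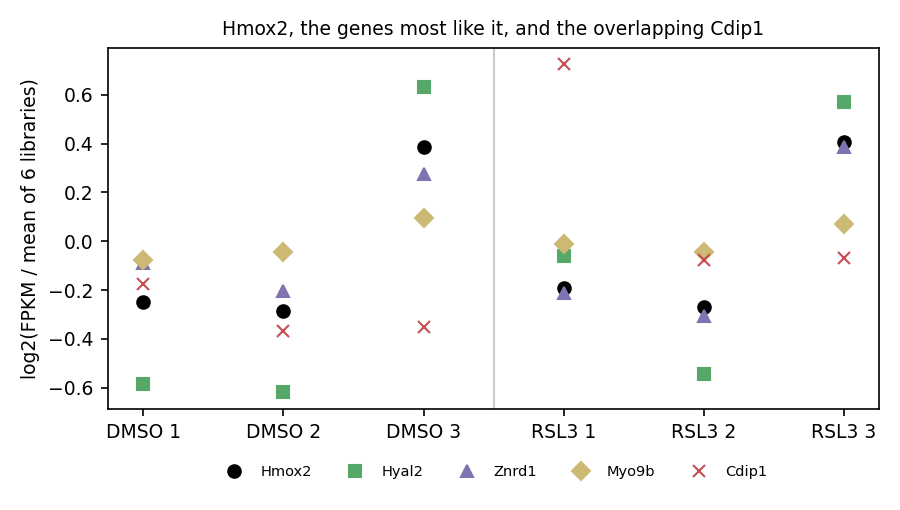
Level of Hmox2, the 3 genes with the most similar profile and the overlapping Cdip1, as log2 of FPKM over the mean of the 6 libraries (vertical axis), in each DMSO and RSL3 library (horizontal axis). Hmox2, Hyal2, Znrd1 and Myo9b are highest in replicate 3 of both groups, and Cdip1 is highest in RSL3 replicate 1.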

How the data were processed

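RNA of 6 libraries, 3 DMSO and 3 RSL3, was analysed from the deposited FPKM tables of mRNA, 1 per library. Per the submitters' processing notes, cutadapt, HISAT2, StringTie 1.3.3 and the build GRCm38 were used. Per the labels' protocols, a poly(A) module took out ribosomal RNA and the kit was stranded. The sources used here give neither the annotation release nor filters nor read depth. The lncRNA and circRNA tables were not used here. Of 11609 identifiers, 11595 were found in GENCODE M21 (10157 with the same version), which gave positions, transcripts and GC content. Promoters came from the RefSeq table (GRCm38.p6), which holds 3 of the 5 genes.

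Groups were compared on log2(FPKM + 1) by limma 3.58.1 under R 4.3.3, allowing for a mean-variance trend, in mRNAs that reached 1 FPKM in 3 or more libraries. The code was tested on simulated data. Ratios were tested by exact permutation. The coding sequences were aligned with Biopython 1.88. Alternatives were pseudocounts of 0.1 and 0.5 FPKM, no filter or a filter of 5 FPKM, median-ratio scaling, quantile normalization, no variance trend, a replicate block, length and GC trends removed (mgcv), and each library left out. The 5 genes and all lists were chosen with earlier results of these data known. Named by rule were the 5 genes, the passing genes of each pathway list (at most 8), at least the 2 with the smallest p per pathway list, and the 3 most similar profiles, of which 1 is not reported here. Marker genes were named after their values were seen. The labels number the libraries of a group but state no pairing.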

Additional observations from a re-analysis of the deposited data

How the results depend on the processing

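Hmox1 and Blvrb kept their direction and their call under all 15 alternatives, with log2 fold changes of 0.67 to 0.83 and of 0.85 to 0.97, and Blvra and Fech stayed above 0 without passing. Without replicate 3 of both groups, chosen after seeing the data, neither Hmox1 (0.76, adjusted p = 0.143) nor Blvrb (0.95, adjusted p = 0.140) passed, and that limma fit with 2 libraries a group called 0 of 10387 mRNAs. Hmox2 ranged from -0.17 to 0.24 without single libraries. Blvra had no value under the filter of 5 FPKM. The number of the 5 genes that rose was 2 under each of the 15. Of the surrounding genes, between 3 and 11 rose and between 0 and 2 fell without single libraries, in fits that called between 1.3% and 12.1% of all mRNAs. The number that fell was 2 under the stricter filter or median-ratio scaling, 1 after quantile normalization and 3 with length and GC trends removed. In the same order, 6.2%, 3.62%, 3.11% and 8.07% of all tested mRNAs fell, and the cause was not tested. Without single libraries Rnf139 ranged from -0.33 to 0.12, the latter without RSL3 replicate 1. Abcc1 stood at 0.026 with median-ratio scaling and 0.025 with quantile normalization, and ranged from -0.034 to 0.013 without single libraries.

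The deviations of same-numbered libraries correlated at -0.15, 0.05 and -0.06 across genes. With 3 libraries a group, such correlations cannot show whether same-numbered libraries were paired. With the replicate block, Hmox1 had an adjusted p of 0.0214, Blvrb 0.0143, Hmox2 0.860, Blvra 0.370 and Fech 0.225, and 253 mRNAs passed instead of 676. Not every library correlated best with its own number. The block left the 4 ratios at their values (exact sign-flip p = 0.25 for each, the smallest possible). Depth is unknown for FPKM, so no limit of detection is given.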
